A study of Mus musculus with 30 samples.

Results

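The genes described here are the 9 that carry out or control MHC class I antigen presentation and that were chosen by name: H2-K1, H2-D1, B2m, Tap1, Tap2, Tapbp, Nlrc5, Psmb8 and Psmb9. All 9 had rows among the 13752 genes of the deposited RNA count table, and 18 of the 151630 peaks of the deposited ATAC-seq table were annotated as promoter peaks of 8 of them. The libraries were made from mouse retinal ganglion cells (RGCs), the projection neurons of the retina, which were freed with papain and sorted by FACS. Each RNA library came from 5000 to 10000 sorted cells and each ATAC-seq library from 50000 to 100000, per the labels' protocols. The libraries compared were RGCs taken 1, 2, 3 or 4 days after crush of the optic nerve, and RGCs with no crush, called day 0. The labels name no transgene, knockout or drug for any group, but headers of the authors' deposited comparisons call the groups NT or nonTarget, which the labels do not explain. The strain is labelled C57BL/6 throughout, except that RNA day 0 replicates 2 and 3 carry the labels C57BL/7 and C57BL/8.

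RNA was measured in 3, 3, 2, 3 and 2 libraries on days 0, 1, 2, 3 and 4, and accessibility in 6, 3 and 6 libraries on days 0, 1 and 3. Totals ran from 19024286 to 27561352 counts per RNA library and from 20006724 to 72579102 counts in peaks per ATAC-seq library. Whether each library came from its own animals is not stated in the labels. The p-values below thus weigh differences between days against the spread among libraries of a day, which may be technical in part. All 14 of 14 RGC markers were detected in every RNA library, with a summed level of 7448.7 to 13088.0 counts per 1000000 counts of the library (CPM). Detection does not measure purity, since 12 of 12 photoreceptor markers were also detected in every library. Those summed to 248.9 to 1115.3 CPM. Markers of amacrine, horizontal and bipolar cells, 13 of 14 in the table, summed to 318.1 to 752.7 CPM.

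MHC class I molecules hold short peptides from a cell's own proteins at its surface, where CD8+ T cells and natural killer cells read them. Proteasomes cut the peptides, the TAP transporter carries them into the endoplasmic reticulum, and tapasin helps load them onto a heavy chain paired with beta-2-microglobulin. Interferons raise the whole set through factors such as IRF1 and NLRC5, and neurons normally hold it low, although class I molecules are also known for a part in the pruning of synapses in the visual system.

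The promoters of H2-K1, H2-D1 and B2m are shown because they hold the letters of elements known to control class I genes, and that of Tap1 for comparison, since it holds a lone TGACG and a distant ATTGG. The windows are RefSeq's for build GRCm38.p6, from 250 bases before to 50 bases after the RefSeq start, read in the direction of transcription. H2-K1 is at chr17:34000298-34000597 (minus strand), H2-D1 at chr17:35262844-35263143, B2m at chr2:122147437-122147736 and Tap1 at chr17:34187306-34187605 (all plus strand). In H2-K1, H2-D1 and B2m the capitals mark the interferon response core AANNGAAA, the kappa B letters GGGANTCCC, and the pair TGACG and ATTGG with 20 bases between them. In Tap1 they mark single TGACG and ATTGG matches, on either strand.
H2-K1: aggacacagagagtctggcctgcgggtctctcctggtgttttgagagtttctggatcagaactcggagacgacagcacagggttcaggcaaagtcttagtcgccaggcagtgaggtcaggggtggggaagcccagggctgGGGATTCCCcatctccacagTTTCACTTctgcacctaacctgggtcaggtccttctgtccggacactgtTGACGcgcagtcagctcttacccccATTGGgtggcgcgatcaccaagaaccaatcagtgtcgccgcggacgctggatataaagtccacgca
H2-D1: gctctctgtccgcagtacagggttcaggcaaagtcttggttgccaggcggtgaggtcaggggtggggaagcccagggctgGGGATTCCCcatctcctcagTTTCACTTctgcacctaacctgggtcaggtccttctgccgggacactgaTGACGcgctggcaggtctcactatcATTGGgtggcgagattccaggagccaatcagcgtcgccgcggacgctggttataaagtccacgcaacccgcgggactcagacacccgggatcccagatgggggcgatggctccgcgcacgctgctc
B2m: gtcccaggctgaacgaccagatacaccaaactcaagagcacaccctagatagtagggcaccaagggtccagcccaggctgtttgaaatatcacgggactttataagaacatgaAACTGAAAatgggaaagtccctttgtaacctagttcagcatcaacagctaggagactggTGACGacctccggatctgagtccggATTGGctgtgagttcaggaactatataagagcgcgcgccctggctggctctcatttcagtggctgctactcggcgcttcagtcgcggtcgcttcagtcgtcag
Tap1: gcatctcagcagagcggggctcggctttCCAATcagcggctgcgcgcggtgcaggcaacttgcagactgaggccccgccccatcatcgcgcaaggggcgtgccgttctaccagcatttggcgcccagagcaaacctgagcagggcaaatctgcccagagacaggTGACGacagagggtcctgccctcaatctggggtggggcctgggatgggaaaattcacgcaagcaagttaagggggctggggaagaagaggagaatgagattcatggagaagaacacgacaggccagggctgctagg

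TGACG is part of a cyclic AMP response element, known in class I promoters as the X2 box, and ATTGG is the core of the Y box bound by NF-Y. NLRC5 is known to be held at this pair of boxes by the RFX, CREB and NF-Y proteins. With 20 bases between them, the pair was found on either strand in 3 of the 7 members that have a RefSeq window, H2-K1, H2-D1 and B2m, and in 0.0944% of all 32851 windows. In H2-D1 it ran from position -101 to -72 from the start, in B2m from -78 to -49, and in H2-K1 from -41 to -12. These positions depend on where RefSeq places the start. The letters tataaagtccacgca follow the pair in both H2-K1 and H2-D1, after the RefSeq start in H2-K1 and before it in H2-D1. The spacing was chosen after these sequences had been read, so its count in the members is a description.

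The interferon response core was found in the same 3 promoters and in 23.9% of all windows, and the kappa B letters in H2-K1 and H2-D1 and in 0.767% of all windows. The kappa B letters read the same on both strands, and the interferon and kappa B matches overlapped no other match. TGACG alone was found in 20.8% and ATTGG alone in 37.4% of all windows. Tap1 and Psmb9 are read away from each other, and 275 of the 300 bases of their windows are shared, on opposite strands.

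**Figure D1:**
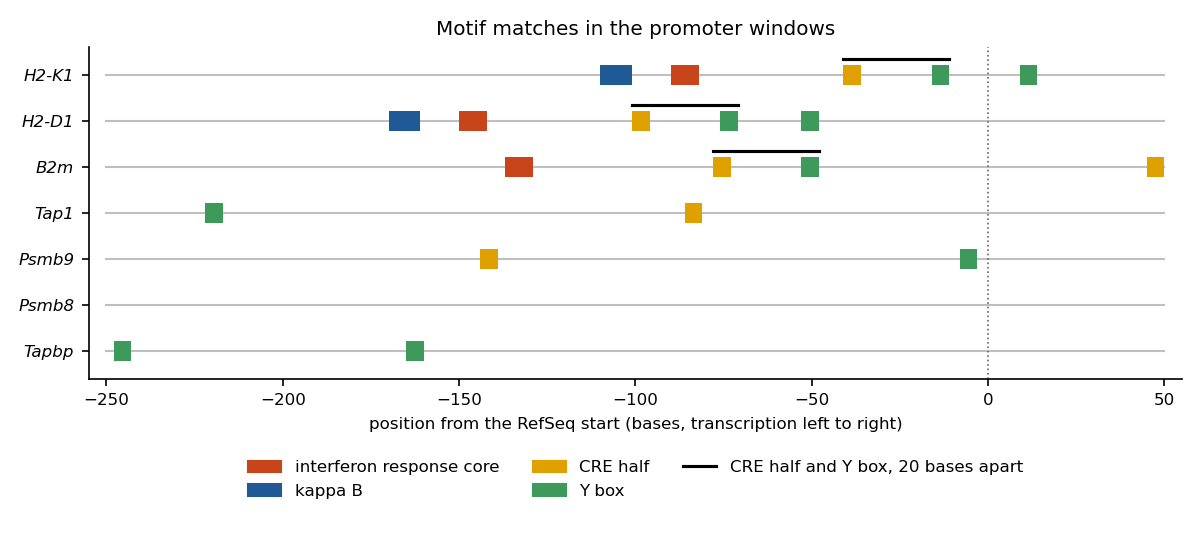
Positions of the motif matches in the promoter windows of the 7 members with a RefSeq entry, in bases from the RefSeq start with transcription running left to right. Coloured boxes are matches on either strand and black bars mark the TGACG and ATTGG pair 20 bases apart, which is present in H2-K1, H2-D1 and B2m. The Psmb8 window held none of the motifs drawn.

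The 2 heavy chains and their light chain followed one course: low in 2 of the 3 day 0 libraries, high on days 1 and 2, low again on day 3 and in between on day 4. The exception was day 0 replicate 3, an uncrushed library in which all 9 genes stood near their day 1 level. H2-K1, the classical heavy chain H-2K (chr17:33996017-34000347 of build mm10, minus strand), had 45.0, 87.2 and 649 CPM in day 0 replicates 1, 2 and 3. It had 785.5, 340.8 and 738.8 CPM on day 1, 1032 and 391.4 CPM on day 2, 61.0, 48.3 and 52.9 CPM on day 3, and 194.5 and 170.7 CPM on day 4. Day 0 replicate 3 was thus inside the range of the day 1 libraries, and no day 3 library overlapped days 1 or 2.

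H2-D1, the heavy chain H-2D (chr17:35262730-35267499), had 88.8, 156.2 and 521 CPM on day 0, then 563, 308.6 and 496 CPM on day 1 and 649 and 287 CPM on day 2. It had 85.0, 91.3 and 85.4 CPM on day 3 and 229 and 188.6 CPM on day 4. B2m, which encodes beta-2-microglobulin (chr2:122147686-122153083), had 168.8, 150.3 and 1363 CPM on day 0, then 2008, 904 and 1039 CPM on day 1 and 2087 and 867 CPM on day 2. Both genes were low and tight on day 3, where B2m had 189.9, 169.8 and 149.1 CPM. On day 4 B2m had 606 and 713 CPM, above both low day 0 libraries and below every library of days 1 and 2. Reads of H2-K1 and H2-D1 may be shared with each other and with the many class I genes that resemble them, so how the counts divide between the 2 heavy chains is uncertain.

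The subunits of the peptide transporter had lower counts, and Tap1 showed the same course. Tap1, the TAP subunit that pairs with Tap2 (chr17:34187553-34197225), had 4.55, 5.53 and 74.3 CPM on day 0, then 73.0, 55.3 and 48.2 CPM on day 1 and 72.0 and 29.98 CPM on day 2. Its 3 day 3 libraries, with 3.40, 2.84 and 2.17 CPM, lay below all the day 0 libraries, and day 4 had 10.05 and 8.48 CPM. Tap2 (chr17:34203527-34216321) was the least counted member, with 8 to 158 counts per library, and the one whose day 3 libraries overlapped those of day 2. It had 1.14, 0.604 and 6.14 CPM on day 0, 6.56, 4.46 and 3.38 CPM on day 1, 5.09 and 2.23 CPM on day 2, 1.80, 0.349 and 3.26 CPM on day 3, and 1.38 and 1.94 CPM on day 4.

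Tapbp encodes tapasin, which holds an empty heavy chain at the transporter (chr17:33915899-33929292). It had 15.4, 17.01 and 78.1 CPM on day 0, then 80.9, 76.95 and 49.9 CPM on day 1, 71.6 and 30.7 CPM on day 2, and 8.68, 7.99 and 5.85 CPM on day 3. Day 4, with 18.6 and 19.0 CPM, was just above day 0 replicates 1 and 2. Tapbp and Tap1 were the 2 members whose day 3 libraries were all below every day 0 library. The share of all genes that did so was not computed.

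Psmb8 and Psmb9 encode catalytic subunits that replace their constitutive counterparts to form the immunoproteasome. Psmb8 (chr17:34197721-34201454) had 1.73, 2.03 and 55.1 CPM on day 0, then 77.2, 35.6 and 29.0 CPM on day 1, 88.7 and 34.3 CPM on day 2, 1.43, 2.49 and 2.30 CPM on day 3 and 8.26 and 6.92 CPM on day 4. Psmb9 (chr17:34181987-34187764, minus strand) had 2.54, 2.89 and 59.4 CPM on day 0, then 67.6, 46.3 and 50.0 CPM on day 1, 60.6 and 23.1 CPM on day 2, 1.97, 2.84 and 2.67 CPM on day 3 and 5.42 and 2.56 CPM on day 4. On day 4, Psmb9's replicate 3 lay inside the range of the low day 0 libraries. The first bases of Tap1 and Psmb9 overlap on opposite strands in the annotation. The library kit does not mark strand, so reads there cannot be told apart.

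Nlrc5 encodes the class I transactivator, which has no DNA-binding domain of its own and acts through the RFX, CREB and NF-Y proteins (chr8:94434356-94527272). It had 0.920, 1.99 and 40.8 CPM on day 0, then 39.9, 31.2 and 21.6 CPM on day 1, 50.0 and 15.3 CPM on day 2, 3.86, 1.79 and 4.84 CPM on day 3 and 12.97 and 8.43 CPM on day 4. Its day 3 libraries overlapped the low day 0 libraries, and its day 4 libraries were above both.

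**Figure D2:**
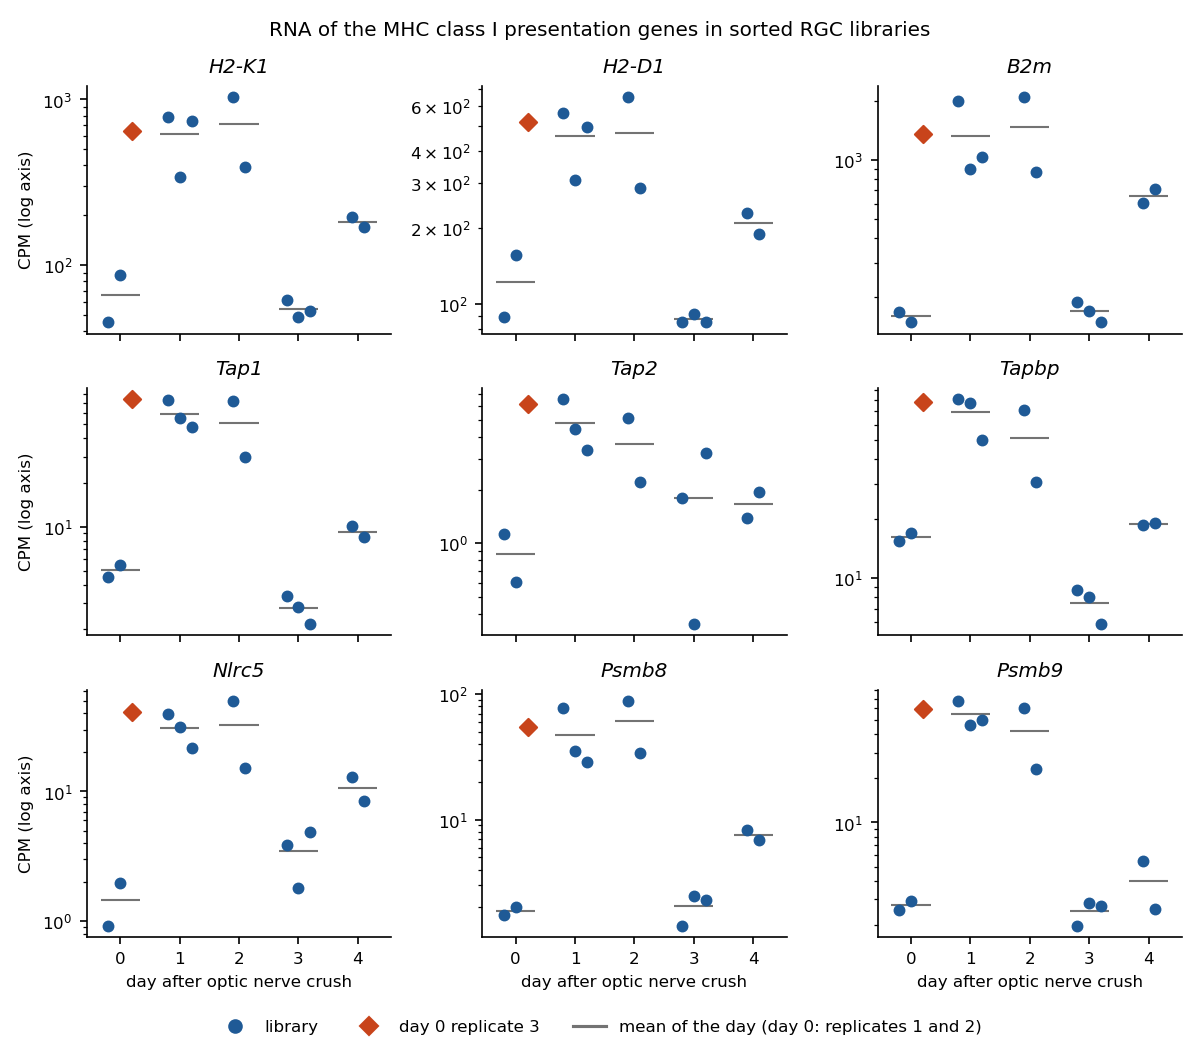
RNA level of each of the 9 genes in every library, in CPM on a log axis, against the day after optic nerve crush. Circles are libraries, the diamond is day 0 replicate 3, and grey lines are the mean of each day (for day 0, of replicates 1 and 2). The diamond stands at the level of days 1 and 2 in every panel.

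Day 0 replicate 3 exceeded the mean of the other two day 0 libraries by 4.25-fold for H2-D1 to 29.3-fold for Psmb8. For 8 of the 9 genes it lay inside the range of the day 1 or day 2 libraries, and for Tap1 it was above both. How many of all genes lay inside those ranges was not computed. Genes of the crush response differed in how they stood in it. Atf3, an injury-induced transcription factor, had 43.98 to 54.4 CPM on day 1, against 3.8 CPM in this library and 2.2 and 4.4 CPM in the other day 0 libraries. Sox11, another injury-induced factor of RGCs, had 298.0 to 344.9 CPM on day 1, against 38.5 to 45.5 CPM in the 3 day 0 libraries. These 2 were thus near the other day 0 libraries, whereas Jun and Stat3 lay above them. Jun, an injury-induced factor of the AP-1 family, had 459.1 to 488.0 CPM on day 1, against 125.2 CPM in day 0 replicate 3 and 57.97 and 81.6 CPM in replicates 1 and 2. Stat3, a factor of injury and cytokine signalling, had 129.5 to 150.9 CPM on day 1, against 82.0 CPM in day 0 replicate 3 and 40.2 and 44.8 CPM in replicates 1 and 2. Each comparison with day 0 is therefore given with this library and without it.

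With all 13 libraries, 0 of the 9 genes passed the test on day 1 against day 0, where 11.4% of the 13737 genes tested did (edgeR quasi-likelihood test, Benjamini-Hochberg adjusted p under 0.05). Their log2 changes ran from 0.83 for H2-D1 to 1.33 for Psmb9, with a median of 1.07 against 0.01 over all genes. At an unadjusted p under 0.05, too, the count was 0, and DESeq2 called 0 of the 7 genes to which it gave an adjusted p (none for B2m and Psmb9 with all 13 libraries). On day 2 against day 0 the count was again 0 by edgeR and 0 of those 7 by DESeq2, against 29.3% of all genes, and 1 at an unadjusted p under 0.05, with a median of 0.94 against 0.04. On day 4 it was 0 by edgeR and 0 of the 7 by DESeq2, against 38.9% of all genes, and 1 at an unadjusted p under 0.05, with a median of -0.67 against 0.06. In the authors' deposited table of RNA comparisons, too, 0 of the 9 passed an adjusted p of 0.05 on day 1, with log2 changes of 0.78 for H2-D1 to 1.28 for Psmb9. The second comparison of the authors' deposited table is labelled day 3 but matched the fit of day 2 to within 0.2 on the log2 scale for all 13737 genes, and that of day 3 for 34.4%, so it is not used here as day 3.

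Without day 0 replicate 3, all 9 genes rose on day 1, where 6.22% of the 13736 genes tested rose. The smallest log2 change was 1.87 ± 0.30 for H2-D1 (SE, edgeR adjusted p = 0.00047) and the largest 4.62 ± 0.49 for Psmb8 (adjusted p = 7.8e-06). H2-K1 changed by 3.21 ± 0.39, B2m by 3.03 ± 0.34, Tap1 by 3.52 ± 0.33, Tapbp by 2.08 ± 0.30, Nlrc5 by 4.36 ± 0.55 and Psmb9 by 4.30 ± 0.41. Tap2 was nearest to the threshold, at 2.45 ± 0.75 (edgeR adjusted p = 0.043). In CPM, H2-K1 averaged 622 ± 244 on day 1 and 66.1 ± 29.8 in day 0 replicates 1 and 2 (SD, n = 3 and 2). All 9 genes were higher in each of the 5 libraries of days 1 and 2 than in both of those day 0 libraries. That count is a description, since the share of all genes with libraries apart in this way was not computed.

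On day 2, without that library, 8 of the 9 genes rose, against 13.2% of all genes, by 1.64 ± 0.31 for Tapbp to 5.00 ± 0.51 for Psmb8 on the log2 scale. Tap2 did not pass, at 2.06 ± 0.78 (edgeR adjusted p = 0.060). Of the 2 day 2 libraries, replicate 1 was 2.26-fold to 3.27-fold above replicate 2 across the 9 genes.

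**Figure D3:**
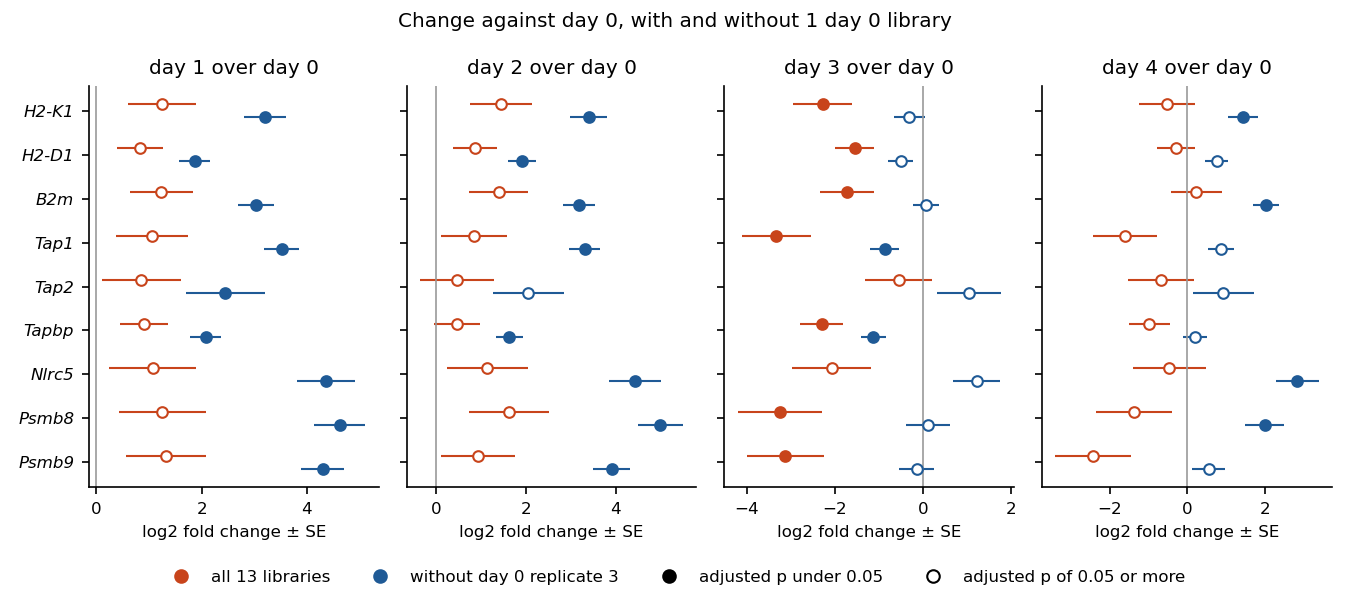
Log2 fold change of each gene against day 0 with its standard error, on days 1 to 4, fitted with all 13 libraries (orange) and without day 0 replicate 3 (blue). Filled points passed an adjusted p of 0.05. On days 1 and 2 filled points appear without that library only, and on day 3 the 7 filled orange points reduce to 2 filled blue ones.

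On day 3 against day 0, with all 13 libraries, 7 of the 9 genes fell, against 20.1% of all genes that fell, by 1.55 on the log2 scale for H2-D1 to 3.33 for Tap1 (edgeR adjusted p = 0.011 and 0.0026). Tap2 changed by -0.55 ± 0.76 and Nlrc5 by -2.07 ± 0.90, and neither passed. Without day 0 replicate 3, Tap1 fell by 0.86 ± 0.33 (edgeR adjusted p = 0.047) and Tapbp fell by 1.12 ± 0.29 (adjusted p = 0.0048), 2 of the 9 where 18.8% of all genes fell. The other 7 then ran from -0.51 ± 0.28 for H2-D1 to 1.22 ± 0.54 for Nlrc5, with B2m at 0.08 ± 0.30 and Psmb8 at 0.12 ± 0.50. A share of 2 in 9 is near that of all genes.

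Day 3 can also be set against day 1, a comparison that needs no day 0 library. There 8 of the 9 genes fell with all 13 libraries and also with 12, where 17.5% and 17.7% of all genes fell. With all 13 libraries the log2 change was -3.52 ± 0.70 for H2-K1, -2.96 ± 0.63 for B2m, -4.39 ± 0.81 for Tap1, -4.51 ± 0.98 for Psmb8 and -3.14 ± 0.92 for Nlrc5 (edgeR adjusted p = 0.014 for Nlrc5, the largest of the 8). Tap2 did not pass, at -1.41 ± 0.76. All 3 day 3 libraries were below every library of days 1 and 2 for 8 of the 9 genes, a count with no share of all genes computed beside it. Genes of the crush response differed over the same days. Atf3 had 449.8 to 528.9 CPM on day 3, against 43.98 to 54.4 CPM on day 1. Sox11 had 857.5 to 955.0 CPM on day 3, against 298.0 to 344.9 CPM on day 1. Jun and Stat3 were lower on day 3 than on day 1. Jun had 411.0 to 455.1 CPM on day 3, against 459.1 to 488.0 CPM on day 1. Stat3 had 95.3 to 109.2 CPM on day 3, against 129.5 to 150.9 CPM on day 1.

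On day 4 the mean level stood between those of day 3 and day 1 for every gene but Tap2. Tap2 averaged 1.66 CPM on day 4 and 1.80 CPM on day 3. Psmb9 had 2.56 CPM in day 4 replicate 3, inside its day 3 range of 1.97 to 2.84 CPM. For 7 of the 9, both day 4 libraries were above all day 3 libraries and above day 0 replicates 1 and 2, and for all 9 both were below every library of days 1 and 2. These counts are descriptions, since the shares of all genes that did the same were not computed. Without day 0 replicate 3, 4 genes rose on day 4 against day 0, where 18.3% of all genes rose: H2-K1 by 1.45 ± 0.39, B2m by 2.04 ± 0.34, Nlrc5 by 2.84 ± 0.56 and Psmb8 by 2.00 ± 0.50 on the log2 scale (edgeR adjusted p = 0.0064, 0.00011, 0.00056 and 0.0040). Against day 1, 3 genes fell on day 4 with all 13 libraries, Tap1, Tapbp and Psmb9, where 15.8% of all genes fell. With 12 libraries 8 fell, where 16.2% of all genes did. The 3 calls dropped to 0 when either day 4 library was left out of the fit to all libraries, and came to 6, 4 and 8 when day 0 replicate 1, 2 or 3 was.

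The 9 genes moved together from library to library. Across the 13 libraries the 36 pairwise Pearson correlations of log2 CPM ran from 0.718 to 0.991 with a median of 0.936, and without day 0 replicate 3 from 0.677 to 0.990. The lowest values involved Tap2. The points share library and depth, and the days themselves separate them, so these are descriptions of the course above.

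Among the 10 genes whose log2 CPM was most like the mean standardized level of the members, over the 13 libraries, were Gbp6, Parp14, Irgm2, Bst2, Gbp7, Iigp1, Oasl2, Parp12 and Trim21. The Pearson correlations of the 10 with it ran from 0.966 to 0.978. Of the 10, 7 were on the list of interferon-induced genes. Irgm2, an interferon-induced GTPase, had 212 CPM in day 0 replicate 3, against a mean of 4.11 CPM in the other two day 0 libraries, and averaged 161.9 CPM on day 1 and 4.11 CPM on day 3. Without day 0 replicate 3, 8 of these 10 stayed among the 10 most alike, and Cd200 and Ifit2 took the places of Parp12 and Trim21.

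Upstream of the members, Irf1 was high in day 0 replicate 3 and on days 1 and 2. Irf1, whose product binds the interferon response element, had 1.08, 0.0863 and 21.7 CPM on day 0, then 60.4, 35.2 and 19.4 CPM on day 1 and 53.9 and 23.4 CPM on day 2. It had 2.56, 2.05 and 2.30 CPM on day 3 and 5.19 and 6.87 CPM on day 4, so all 3 day 3 libraries lay above both low day 0 libraries. It did not pass on day 1 with all 13 libraries, at 2.30 on the log2 scale (edgeR adjusted p = 0.10). Without day 0 replicate 3 it rose by 6.11 on day 1 and by 6.12 on day 2 (adjusted p = 8.9e-06 and 2.7e-06), and on day 3 it rose by 2.06 (adjusted p = 0.024).

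Rfx5, a subunit of the RFX complex that helps to hold NLRC5 at class I promoters, had 38.3, 42.4 and 54.3 CPM on day 0, 49.2, 60.9 and 48.2 CPM on day 1, 51.7 and 50.05 CPM on day 2, 29.9, 31.4 and 22.9 CPM on day 3 and 21.04 and 28.1 CPM on day 4. Its 5 libraries of days 1 and 2 lay above day 0 replicates 1 and 2, but it passed on neither day, with or without day 0 replicate 3. It fell on day 3 by 0.68 and on day 4 by 0.87 on the log2 scale (edgeR adjusted p = 0.0029 and 0.0012, all 13 libraries), while Rfxank and Rfxap passed on no day. Nfya, a subunit of NF-Y, rose by 1.64 on day 3 and 1.85 on day 4 (adjusted p = 1.7e-06 and 1.01e-06). Stat3 rose on day 1 with all 13 libraries (1.30, adjusted p = 0.00046) and without the third day 0 library (1.67, adjusted p = 3.8e-07). Of the 23 listed factors tested, 2 rose and 0 fell on day 1 with all libraries, where 5.93% of all genes rose, and 6 rose and 1 fell without day 0 replicate 3, where 6.22% rose.

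Interferon-induced genes outside antigen presentation gave the closest match as a list. Without day 0 replicate 3, 27 of 30 rose on day 1, where 6.22% of all genes did. Their median log2 change was 4.65 against -0.01 over all genes. With all 13 libraries 4 of 30 rose, where 5.93% of all genes did, with a median of 1.55. On day 3 against day 1, 29 of 30 fell, where 17.5% of all genes did, with a median of -5.07 against 0.00 over all genes (all 13 libraries). Summed over the list, they had 181 to 192 CPM in day 0 replicates 1 and 2 and 2968 CPM in replicate 3, then 1617 to 3772 CPM on day 1, 1185 to 3933 CPM on day 2, 124.5 to 136.8 CPM on day 3 and 569 to 654 CPM on day 4.

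The remaining steps of the pathway were less uniform. Among 7 genes of the immunoproteasome, its assembly and its activators, Psmb10, the third catalytic subunit, rose by 1.17 and Psme1, a subunit of the activator PA28, by 0.93 on day 1 without day 0 replicate 3 (edgeR adjusted p = 0.026 and 0.033). In all, 3 of the 7 rose and 1 fell there, where 6.22% of all genes rose and 4.96% fell. With all 13 libraries 0 rose and 1 fell, where 5.93% of all genes rose and 5.45% fell. Psme3, which encodes a nuclear activator, was the one that fell. Of 14 constitutive core subunits, 0 passed by edgeR on day 1 with either set of libraries (0 and 1 at an unadjusted p under 0.05), and on day 3, 3 rose and 0 fell with either set, where 20.4% of all genes rose with all 13 libraries and 18.6% with 12. A share of 3 in 14 is near that of all genes. On day 2, 6 of the 14 fell and 0 rose with all 13 libraries, where 1986 of 13737 genes fell. With 12 libraries 3 fell and 0 rose on day 2, where 1886 of 13736 genes fell.

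Of 13 peptide loading and trimming genes tested, 0 rose and 1 fell on day 1 with all libraries, where 5.93% of all genes rose and 5.45% fell. In the fit without day 0 replicate 3, 2 rose and 1 fell, where 6.22% of all genes rose and 4.96% fell. Canx, the chaperone calnexin, was not changed past the threshold on day 1 (-0.14) and fell by 0.75 on day 3 (edgeR adjusted p = 4.4e-06, all 13 libraries). Of 11 other class I or class I-like heavy chains tested, 1 rose on day 1 with all libraries, where 5.93% of all genes rose. Without the third day 0 library 4 rose, where 6.22% of all genes rose. H2-Q5, a Qa-region heavy chain, rose by 3.13 in the fit without it (adjusted p = 0.0030). H2-T24 went another way and rose on day 3 by 1.08 with all libraries (adjusted p = 0.00033), when it had 36.9, 35.7 and 40.8 CPM on day 3, against 24.2, 12.6 and 16.8 CPM on day 0.

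**Figure D4:**
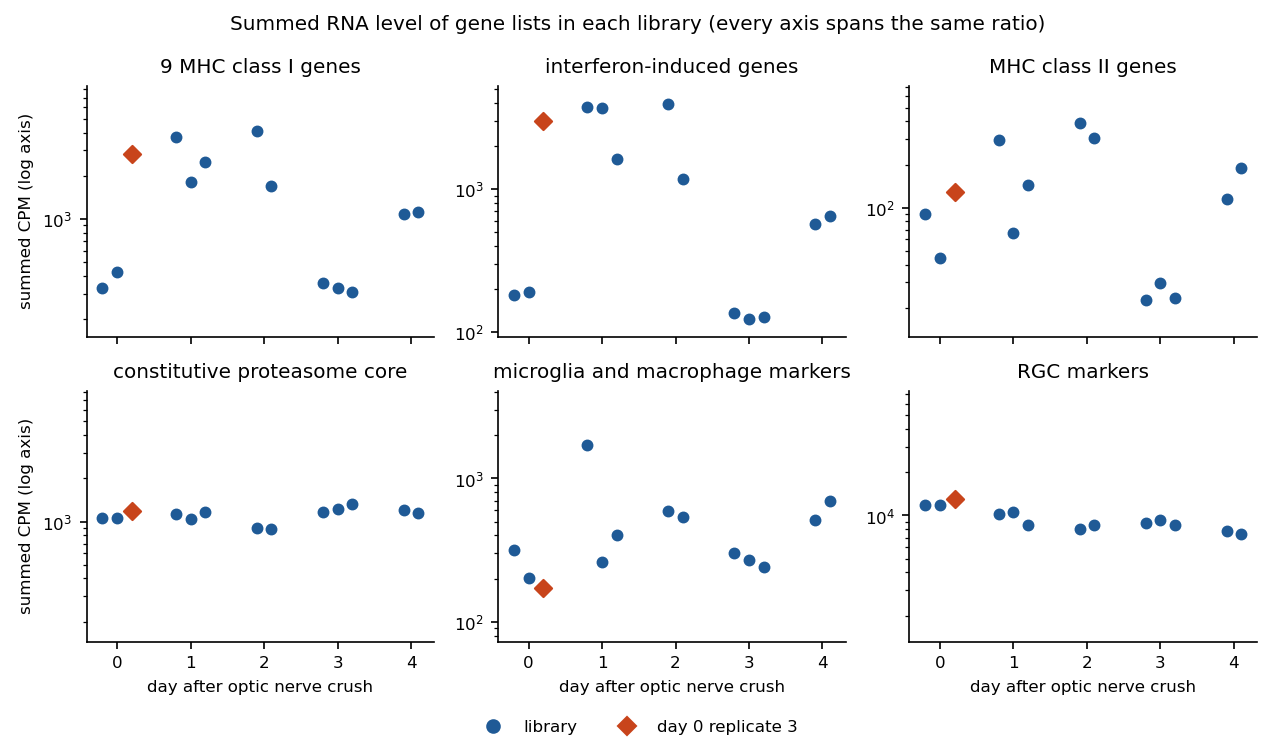
Summed CPM of 6 gene lists in each RNA library against the day after crush, on log axes that all span the same ratio. The diamond is day 0 replicate 3. It stands high for the 9 class I genes and the interferon-induced genes, at 129 CPM against 90.5 and 44.2 CPM in day 0 replicates 1 and 2 for MHC class II, and near the other day 0 libraries for microglia and macrophage markers and for RGC markers.

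Markers of other cells moved on some of the same days. The 19 of 20 microglia and macrophage markers in the table summed to 261.6 to 1717.2 CPM on day 1, 534.0 to 594.9 CPM on day 2, 241.2 to 303.8 CPM on day 3 and 509.6 to 692.4 CPM on day 4, against 172.8 to 314.6 CPM on day 0. None of the 19 was at 0 in any library, among them Ptprc, the pan-leukocyte marker. The microglia sum and the class I sum were both lower in every day 3 library than in every library of days 2 and 4. The class I sum was 308.5 to 357.0 CPM on day 3. It was 1681.1 to 4115.5 CPM on day 2 and 1086.0 to 1119.1 CPM on day 4. Some other libraries ranked differently by microglia sum and by class I sum. Day 0 replicate 3 had the lowest microglia sum of all 13 libraries, 172.8 CPM, with a class I sum of 2846.8 CPM. Day 1 replicate 2 had a microglia sum of 261.6 CPM, below the 314.6 CPM of day 0 replicate 1, with class I sums of 1803.5 and 328.9 CPM in those libraries. Day 1 replicate 1 had the highest microglia sum, 1717.2 CPM, and leaving it out of the fit with 12 libraries left 8 of the 9 genes higher on day 1.

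The only T and NK cell marker of 11 in the table, Cd3e, ran from 0.0418 to 4.16 CPM. MHC class II genes mark professional antigen-presenting cells. On day 1 with all libraries 0 of 6 passed the edgeR threshold (2 at an unadjusted p under 0.05), where 11.4% of all genes did. Without day 0 replicate 3, 1 of 6 rose, where 6.22% of all genes rose. With all libraries, 4 of 6 rose on day 2, where 14.8% of all genes rose. Cd74, the class II invariant chain, had 142.1 and 96.2 CPM on day 2, against 30.1, 9.97 and 37.3 CPM on day 0. On day 3, 4 of the 6 fell against day 0 with all libraries and 3 without day 0 replicate 3, where 20.1% and 18.8% of all genes fell. Against day 1, 5 of the 6 fell on day 3 with all libraries, where 17.5% of all genes fell, and Cd74 had 4.82, 4.71 and 8.56 CPM on day 3. Markers of Mueller glia and astrocytes, 11 of 13 in the table, were also lower on day 3, with a sum of 376.0 to 509.1 CPM, against 781.3 to 1040.2 CPM on day 1 and 728.5 to 864.6 CPM on day 0. In sorted bulk samples a change in the number of cells of a type and a change in RNA per cell cannot be told apart. The part of other cells in the class I values was not tested, and the sums of single libraries are descriptions.

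Accessibility was measured on days 0, 1 and 3 in libraries of 2 batches, as the deposited covariate table names them. Batch 2 held day 0 replicates 1 to 3, all 3 day 1 libraries and day 3 replicates 1 to 3, and batch 1 held the other 3 of day 0 and of day 3. The annotated starts of the members lay in 8 peaks. H2-K1, H2-D1, B2m, Psmb8 and Tap2 had their start in a promoter peak of their own, and Tap1 and Psmb9 shared 1. Tapbp's start lay in a wide peak annotated to its neighbour Daxx, and Nlrc5's in a peak annotated to a gene listed by its identifier only, so neither counts among the 18 promoter peaks. Both are given below as start peaks.

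The batches stood apart at these peaks. At the H2-K1 start peak (chr17:33991530-34002369), batch 2 had 93.4, 90.6 and 89.5 CPM on day 0, 75.9, 63.2 and 76.8 CPM on day 1 and 125.8, 110.1 and 102.4 CPM on day 3. Batch 1 had 44.3, 44.2 and 54.5 CPM on day 0 and 37.7, 49.1 and 50.8 CPM on day 3. Each batch 2 library was above each batch 1 library. With day and batch fitted together, batch 2 exceeded batch 1 at all 18 promoter peaks (edgeR adjusted p under 0.05), where 25.8% of all peaks were higher in batch 2. The log2 difference was 1.12 ± 0.11 at H2-K1, 1.11 ± 0.10 at B2m, 1.01 ± 0.08 at Psmb8 and 0.47 ± 0.09 at Tap2, and its median over all peaks was -0.09.

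With day alone in the fit, 0 of the 18 promoter peaks passed for day 1 against day 0, day 3 against day 0 or day 3 against day 1, where 0%, 9.54% and 0% of the 151630 peaks did (edgeR quasi-likelihood test). DESeq2 also called 0 in each, of the 11 peaks with an adjusted p on day 1 against day 0 and of 18 in the others, and at an unadjusted p under 0.05 edgeR gave 0 in each. Since the batches were unequal between the days, the values within a batch are given beside these.

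Within batch 2, 9 of the 18 promoter peaks were lower on day 1 than on day 0, where 12.4% of all peaks were lower, and 0 were higher. The shared Tap1 and Psmb9 peak (chr17:34185306-34188707) had 40.3, 31.2 and 39.6 CPM on day 1, against 66.5, 70.8 and 66.95 CPM on day 0, a log2 change of -0.94 ± 0.13 (edgeR adjusted p = 0.00019). The Psmb8 peak (chr17:34188943-34199725) had 41.8, 35.2 and 41.5 CPM on day 1, against 65.8, 68.9 and 69.2 CPM on day 0 (-0.84 ± 0.12, adjusted p = 0.00022). The groups did not overlap at either peak.

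Smaller changes within batch 2 were -0.63 ± 0.12 at Tap2 (chr17:34202941-34206854), -0.40 ± 0.12 at H2-K1, -0.39 ± 0.12 at H2-D1 (chr17:35260556-35271203) and -0.46 ± 0.13 at B2m (chr2:122145374-122159411), with edgeR adjusted p between 0.0013 and 0.022. The start peaks of Nlrc5 (chr8:94431532-94437653) and Tapbp (chr17:33913176-33934497) fell by 0.75 ± 0.13 and 0.60 ± 0.12. With all libraries and batch as a term, 3 promoter peaks were lower on day 1, Tap1 with Psmb9, Psmb8 and Tap2, where 2.4% of all peaks were lower. In the authors' deposited table of ATAC-seq comparisons 5 of the 18 were lower on day 1 at an adjusted p under 0.05, among them Psmb8 (-0.83, adjusted p = 0.0093) and Tap1 with Psmb9 (-0.50, adjusted p = 0.030). The share of all peaks lower there was not computed, so that count has no background to be read against. In the authors' deposited table H2-K1 (-0.03, adjusted p = 0.92), H2-D1 (0.01, adjusted p = 0.98) and B2m (-0.20, adjusted p = 0.50) did not pass on day 1. The day 1 log2 changes of the authors' deposited table differed by a median of 0.31 from the fit of day 1 with day alone and by 0.27 from that of day 3, over all peaks. Their Pearson correlation over peaks was 0.39 with the day 1 fit and 0.52 with the day 3 fit. In that day 1 fit, day 1 libraries, all of batch 2, were set against day 0 libraries of both batches. The column was not compared with the fit within batch 2 or the fit with batch as a term. How well it stands for day 1 thus cannot be told from these matches. RNA of the same genes was high on days 1 and 2, but the RNA and ATAC-seq libraries are separate, so no library ties the values together.

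In batch 2, 0 of the 18 promoter peaks passed on day 3 against day 0, where 29.3% of all peaks did, and in batch 1 0 did, where 4.73% did. Still, in batch 2 all day 3 libraries were above all day 0 libraries at H2-K1 and H2-D1, though the share of all peaks apart in this way was not computed. H2-K1 had 125.8, 110.1 and 102.4 CPM on day 3, against 93.4, 90.6 and 89.5 CPM on day 0. H2-D1 had 127.9, 104.7 and 107.0 CPM on day 3, against 95.6, 92.8 and 93.4 CPM on day 0. In batch 1 the days overlapped at both peaks. The Nlrc5 start peak alone of the start peaks fell within batch 2, by 0.43 ± 0.13 (edgeR adjusted p = 0.015), with 25.8, 28.0 and 26.3 CPM on day 3, against 34.5, 32.6 and 35.2 CPM on day 0. In batch 1 it had 14.7, 13.4 and 14.6 CPM on day 3, against 13.04, 11.6 and 13.8 CPM on day 0, which did not pass (0.14 ± 0.16).

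On day 3 against day 1 within batch 2, 6 of the 18 were higher, where 6.30% of all peaks were: those of H2-K1, H2-D1, B2m, Psmb8, Tap1 with Psmb9, and 1 of Nlrc5. The Tap1 and Psmb9 peak had 72.2, 60.2 and 59.2 CPM on day 3, against 40.3, 31.2 and 39.6 CPM on day 1 (0.76 ± 0.13, edgeR adjusted p = 0.0030). With batch as a term 2 passed, Tap1 with Psmb9 and Psmb8, where 0.987% of all peaks were higher.

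The share of reads in peaks moved with day in batch 2. It was 15.7% to 18.6% on day 1 and 31.0%, 17.3% and 18.5% in day 3 replicates 1 to 3, against 39.2% to 49.6% on day 0. Day 3 replicates 2 and 3 had shares like those of day 1. Within batch 2 this share and day 1 against day 0 cannot be told apart, and its part in the values there was not tested. In the fit to all libraries without batch, no promoter peak passed, with the share as a term or without it. There was thus no call to lose there. The share was not added to the within-batch fits or to the fit with batch as a term.

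**Figure D5:**
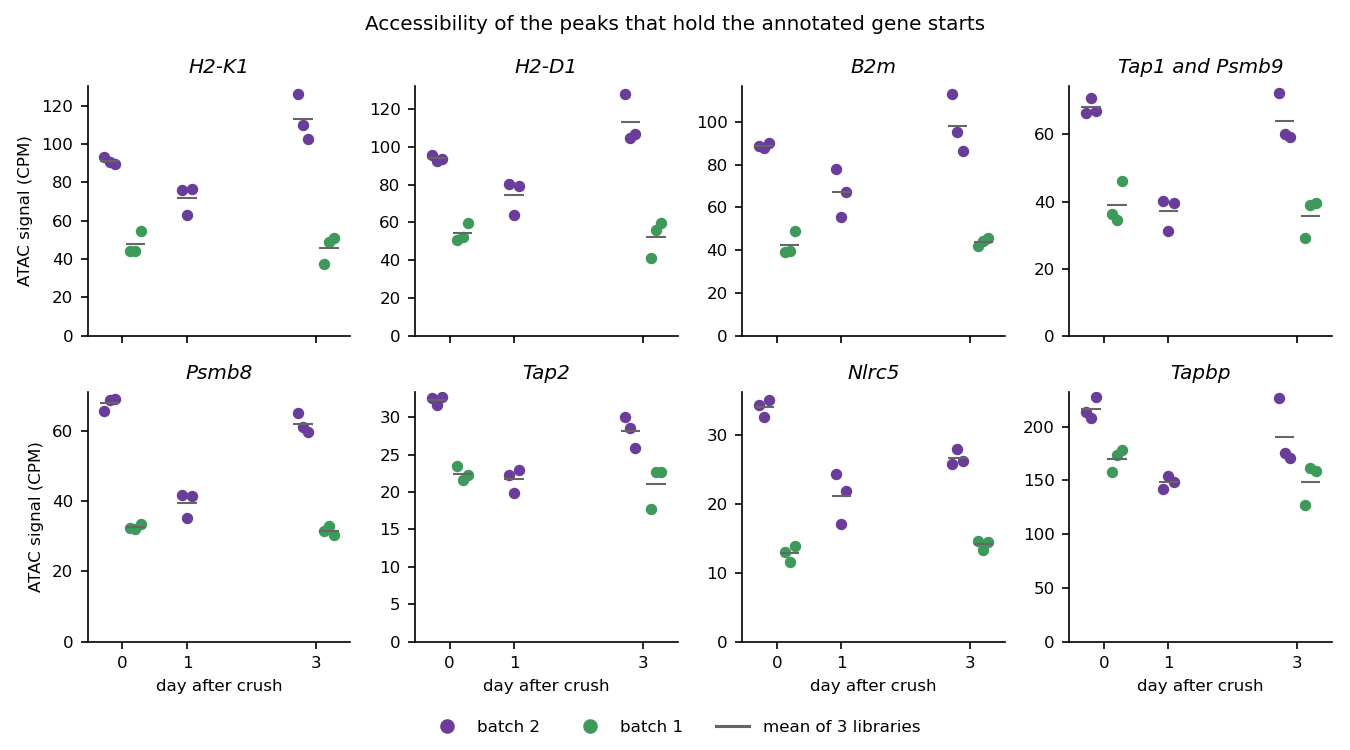
ATAC-seq signal in CPM at the 8 peaks that hold the annotated starts of the 9 genes, by day after crush. Points are libraries, purple for batch 2 and green for batch 1, and grey lines are the mean of 3 libraries. At every peak batch 2 stands above batch 1 on day 0, and the day 1 libraries, all batch 2, stand below the batch 2 libraries of day 0.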

How the data were processed

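The authors deposited raw counts per gene and per consensus peak. Per the submitters' processing notes, RNA reads went through STAR, Picard, HTSeq and edgeR (mm10). The same notes name bedtools, Bowtie2, ChIPseeker, DESeq2, FastQC, featureCounts, MACS2, Picard, SAMtools, Subread and Trim Galore for ATAC-seq (GRCm38, mm10), and no version is given in the sources used here. Per the file headers, deposited fractions give the share of G and C of each peak and the share of reads in peaks, and the authors' tables of comparisons hold log2 fold changes and adjusted p-values. The authors' footprint tables were not used here, nor were RNA day 2 replicate 3 and day 4 replicate 1.

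Columns were assigned to libraries by title. The description field of most ATAC-seq samples names the peak file of another library, while titles and treatments match.

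Each assay was fitted once over all its libraries with day as the only term (edgeR 4.0.16 in R 4.3.3, TMM scaling, filterByExpr, quasi-likelihood F test, Benjamini-Hochberg adjustment over all features, threshold 0.05). The standard error of a log2 change is its size over the square root of F. CPM uses TMM library sizes. Gene coordinates are those of the deposited annotation. The fits were tested on simulated counts. Alternatives covered scaling, filters, DESeq2 1.42.0, the libraries fitted, the replicate block, batch, the share of reads in peaks and leaving out each library. Same-numbered libraries did not deviate together throughout (correlations of -0.126 to 0.0676 over 22 RNA pairs and -0.207 to 0.760 over 12 ATAC-seq pairs), so replicate numbers were not taken as pairs. Named genes were all 9 members, up to 4 per other list with the smallest adjusted p against day 0, fixed transcription factors and the 10 genes most alike by correlation; 1 gene of the last groups is not reported here. Genes named for the crush response (Atf3, Sox11, Jun), Ptprc, Cd3e and the examples Irgm2 and Psme3 were picked for description with values seen. The members, lists and motifs were chosen with earlier results of these data known.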

Additional observations from a re-analysis of the deposited data

How the results depend on the processing

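Day 0 replicate 3 decided the comparisons with day 0. Leaving out 1 library at a time from all 13, the number of the 9 genes called ranged from 0 to 9 on day 1, 0 to 8 on day 2, 2 to 8 on day 3 and 0 to 4 on day 4 against day 0, and from 7 to 8 on day 3 and 0 to 8 on day 4 against day 1. Over the same fits the log2 change on day 3 against day 0 ran from -2.21 to 0.076 for B2m and from -3.82 to 0.12 for Psmb8. On day 4 against day 0 it ran from -1.04 to 1.45 for H2-K1, from -1.03 to 2.84 for Nlrc5 and from -1.94 to 2.00 for Psmb8, and in all 5 the highest value was the one without day 0 replicate 3. Leaving out a further library from the 12 gave 8 to 9 genes on day 1, 8 to 9 on day 2, 1 to 3 on day 3 and 3 to 6 on day 4 against day 0, and 8 to 9 on day 3 and 5 to 9 on day 4 against day 1.

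DESeq2 size factors, other filters and plain library sizes changed no call of a member. With all libraries, DESeq2's own test gave no adjusted p for B2m and Psmb9, and over the other 7 it called as many genes as edgeR in each comparison (5 on day 3 against day 0, 6 on day 3 and 2 on day 4 against day 1, 0 elsewhere). With 12 libraries it called 9, 9, 2 and 5 on days 1 to 4 against day 0 and 9 and 7 on days 3 and 4 against day 1. Fitting only the 2 days compared raised the count on day 4 against day 1 to 9. With the replicate block, replicate numbers as a term, 1 gene was called on day 2 and 5 instead of 7 on day 3, with 0, 0, 9 and 3 in the other comparisons of all 13 libraries. With 12 libraries the block gave 9, 9, 2 and 5 on days 1 to 4 against day 0, and 9 and 8 on days 3 and 4 against day 1.

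For the promoter peaks the block gave 3 lower on day 1 against day 0, 0 on day 3 against day 0 and 2 higher on day 3 against day 1, and the batch term the same counts. Batch 2 alone gave 9, 0 and 6. There the log2 change on day 1 turned to -0.40 at H2-K1, -0.39 at H2-D1, -0.46 at B2m, -0.46 at 1 peak of Psmb9 and -0.44 at 1 of Nlrc5. Every other setting gave 0, leaving out each library included (0 to 0 in each comparison), as did promoter peaks within 1 kb. Over all 151630 peaks, the main fit called 0 on day 1 against day 0, 14466 on day 3 against day 0 and 0 on day 3 against day 1, the batch term 11884, 36123 and 1789, and batch 2 alone 40817, 44367 and 15532, while batch 1 alone called 7162 on day 3 against day 0. Day 1 lies in batch 2 alone, so batch 1 gives no day 1 value.

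Days 2 and 4 had 2 RNA libraries each, which limits the precision there. Tap2 had 8 to 158 counts per library. The 12-library fits, the batch difference and their alternatives were chosen after seeing the data.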

Other observations

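Partners through which class I molecules are known to act on neurons were tested as a list of 8. With all 13 RNA libraries 3 rose on day 1 against day 0 and 5 on day 2, and without day 0 replicate 3 the counts were 2 and 4. Of all genes 5.93% and 14.8% rose on those days with all libraries, and 6.22% and 13.2% without that library. Tyrobp, an adaptor of myeloid receptors, rose by 2.21 on the log2 scale on day 1 with all libraries and by 2.36 without that library (edgeR adjusted p = 0.0085 and 0.013). C1qa, a complement chain made by microglia, rose by 1.92 with all libraries (adjusted p = 0.020) and did not pass without it, at 1.55 (adjusted p = 0.055). Both genes are also on the list of microglia and macrophage markers, and both were highest in day 1 replicate 1, which had the highest sum of that list. Insr, the insulin receptor, rose by 0.47 on day 2 with all libraries and by 0.40 without day 0 replicate 3 (edgeR adjusted p = 0.0014 and 0.0085).

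Of 17 interferon receptors and signalling genes tested, 1 rose on day 1 and 4 on day 2 with all 13 libraries, and 4 and 6 rose without day 0 replicate 3, where the shares of all genes that rose were again 5.93% and 14.8%, and 6.22% and 13.2%. Socs3, a feedback inhibitor of cytokine receptors, rose by 1.61 on day 1 and 2.48 on day 4 on the log2 scale (edgeR adjusted p = 0.0056 and 3.7e-05, all 13 libraries). It had 2.14 CPM in day 0 replicate 3, between the 2.76 and 1.73 CPM of day 0 replicates 1 and 2. Ifnar1, a chain of the type I interferon receptor, rose by 0.43 on day 3 and 0.49 on day 4 with all libraries (edgeR adjusted p = 0.0051 and 0.0041).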
